A study of Mus musculus with 2 samples.

Results

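The microRNAs miR-23, miR-27 and miR-24 are made from a pair of related gene clusters, and their counts were described in 2 small RNA libraries of newborn mouse heart. The clusters were Mir23a, Mir27a and Mir24-2 on chromosome 8, and Mir23b, Mir27b and Mir24-1 on chromosome 13. Members were chosen by gene name: 6 of the 1973 genes in the deposited count tables are members, namely Mir23a, Mir27a, Mir24-2, Mir23b, Mir27b and Mir3074-1. Mir24-1 has no row of its own in the tables. It lies on the other strand of Mir3074-1, so its level was taken from the opposite-strand counts there, which brings the members to 7. Both libraries came from heart tissue of B6NCrl mice, a C57BL/6N substrain, at postnatal day 0. Replicate 1 was heart tissue of pup 1 and replicate 2 heart tissue of pup 3, each called a heart below. There was 1 group, with no treatment and no second genotype, so the comparisons are between the twin clusters within each heart and between the hearts.

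A microRNA is cut from a hairpin transcript, and its seed, bases 2 to 8 of the mature strand, pairs with target messenger RNAs. Either arm of the hairpin (5p or 3p) can give a mature strand. The miR-23, miR-27 and miR-24 families are known for roles in blood vessel growth, and members of all of them have been studied in heart muscle growth and survival. The clusters arose by duplication, so each microRNA has a twin of like sequence, and genes of a cluster are thought to be cut from a shared primary transcript.

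The mature sequences are shown because the twins share their seeds on the 3p arm and are told apart, where they can be, by the bases that follow. They are from RefSeq (GRCm38.p6), 5′ to 3′, with the seed in capitals. All 7 members matched a RefSeq hairpin by symbol. miR-23b-3p and miR-3074-1-3p are named only.
miR-23a-3p: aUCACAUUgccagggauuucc
miR-27a-3p: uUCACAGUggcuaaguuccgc
miR-27b-3p: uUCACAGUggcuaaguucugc
miR-24-3p: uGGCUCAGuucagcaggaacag
miR-24-2-5p: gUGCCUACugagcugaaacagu
miR-24-1-5p: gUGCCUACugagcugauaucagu
miR-3074-5p: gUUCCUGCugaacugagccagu
miR-27a-3p and miR-27b-3p, both 21 nt long, differ by the single change C19U, counted from the 5′ end of miR-27a-3p. miR-24-3p occurs whole in both the Mir24-2 and the Mir24-1 hairpin. The 5p arms of Mir24-2 and Mir24-1 share their first 16 bases and differ after them. miR-3074-5p also occurs whole in 2 hairpins, Mir3074-1 and Mir3074-2.

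The hairpins are printed next, chromosome 8 first in each pair, with the longest run that a hairpin shares with its twin in capitals. A read that lies wholly within such a run matches both twins. Copies outside the annotated hairpins were not searched.
Mir23a: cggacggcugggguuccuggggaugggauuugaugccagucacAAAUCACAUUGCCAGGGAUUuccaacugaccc
Mir23b: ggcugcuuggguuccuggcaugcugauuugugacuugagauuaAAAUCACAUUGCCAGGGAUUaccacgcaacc
Mir27a: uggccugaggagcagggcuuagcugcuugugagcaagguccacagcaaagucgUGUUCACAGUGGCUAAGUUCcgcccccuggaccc
Mir27b: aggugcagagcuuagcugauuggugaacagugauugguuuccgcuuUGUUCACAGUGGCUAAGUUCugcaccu
Mir24-2: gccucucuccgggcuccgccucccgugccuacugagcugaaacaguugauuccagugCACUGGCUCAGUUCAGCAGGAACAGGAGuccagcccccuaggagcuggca
Mir24-1: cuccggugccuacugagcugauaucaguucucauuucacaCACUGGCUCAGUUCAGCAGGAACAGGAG
The shared run was 20 nt in the Mir23 pair and 20 nt in the Mir27 pair, and 28 nt in the Mir24 pair, where it holds all of miR-24-3p. The first 18 bases of miR-23a-3p are in the Mir23b hairpin, and the first 18 of miR-27a-3p are in the Mir27b hairpin. In each case the match to the twin ends after base 18 of 21. Reads that matched several places were listed by the authors apart from the genes. The counts of Mir24-2 and Mir24-1 therefore leave out any read of miR-24-3p that matched both loci equally, and those of Mir3074-1 leave out such reads of miR-3074-5p. For the 3p arm, the Mir23 and Mir27 counts rest on reads that reached the bases that differ, and are uncertain for that reason. The counts do not separate the arms, so any reads of the 5p arm are in them too.

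The chromosome 8 cluster is the more compact one. In GENCODE M21 on mm10, Mir23a lies at chr8:84208518-84208592, Mir27a at chr8:84208672-84208758 and Mir24-2 at chr8:84208815-84208921, all on the plus strand. It spans 404 nt, with gaps of 79 and 56 nt between hairpins. Mir23a and Mir27a overlap no other annotated gene. Mir24-2 touches an exon of the long noncoding RNA Gm26532 on its own strand, and has Mir3074-2 on the opposite strand. The nearest protein-coding gene is Zswim4, 1756 nt away. On chromosome 13, Mir23b lies at chr13:63300484-63300557, Mir27b at chr13:63300712-63300784 and Mir24-1 at chr13:63301208-63301275, also on the plus strand. That cluster spans 792 nt, with gaps of 154 and 423 nt. All of its plus-strand hairpins lie within the protein-coding gene 2010111I01Rik on the same strand, Mir23b in an intron, and Mir27b and Mir24-1 overlapping exons of some transcripts. Mir3074-1 lies on the minus strand at chr13:63301199-63301283, in an intron of Fancc. The chromosome 13 genes carry an older identifier version in the deposited tables than in M21, so their counted bounds may differ slightly from these.

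**Figure D1:**
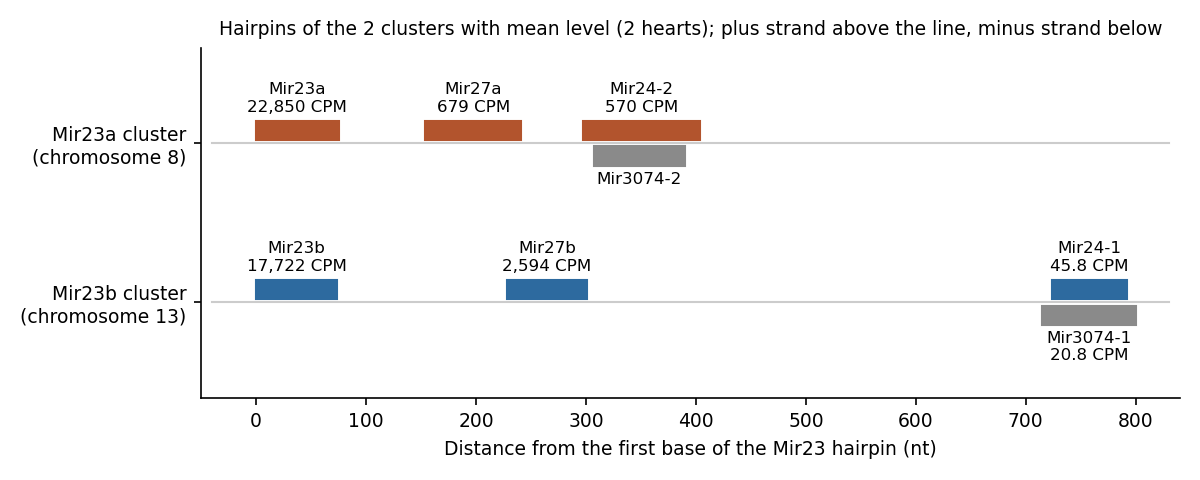
Hairpins of both clusters to scale, by distance in nt from the first base of the Mir23 hairpin, with plus-strand hairpins above the line, minus-strand hairpins below it in grey, and the mean level of 2 hearts in CPM. The order of the hairpins is the same in both clusters, while the chromosome 8 cluster is narrower, at 404 nt against 792 nt for chromosome 13.

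Library totals on the strand of the genes were 6373797 counts in replicate 1 and 7630427 in replicate 2, and levels are given in CPM, counts scaled to 1000000 of that total. The floor, taken as 3 counts, was 0.471 CPM in replicate 1 and 0.393 CPM in replicate 2. Floors and intervals allow for counting error alone. The heart muscle markers Mir208a, Mir208b and Mir499 together held 12.2% and 12.5% of counts. Markers of other cell types the organ holds were also present. The endothelial pair Mir126a and Mir139 summed to 14.7% and 12.5%, the smooth muscle pair Mir143 and Mir145a to 9.41% and 8.77%, 3 erythroid markers to 0.111% and 0.138%, and the 2 leukocyte markers counted to 0.0522% and 0.0565%. The 4 genes of the neuron list that were counted, Mir9-2 and 3 copies of Mir124a, were at 0, but they have further copies, whose shared reads the tables leave out. One such copy, Mir9-3, which is not in the list, had 6 and 7 counts. Markers of liver cells and skeletal muscle were also counted. The hepatocyte marker Mir122 was at 35.8 and 44.6 CPM, and the skeletal muscle pair Mir206 and Mir133b summed to 76.7 and 110 CPM. Both values lie above the level of Mir3074-1 given below, and their source was not tested. In heart tissue of mixed cell types, more cells of a type and more of a microRNA per cell cannot be told apart.

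Mir23a (ENSMUSG00000065611.1) was the most abundant member. It had 144486 counts in replicate 1 and 175738 in replicate 2, which are 22669 CPM (exact Clopper-Pearson 95% interval 22553 to 22785) and 23031 CPM (22925 to 23138), with a mean of 22850 ± 256 CPM (SD, n = 2). It stood at rank 11 of 1973 genes by mean level. Mir23b (ENSMUSG00000065599.1) had 103405 and 146656 counts, or 16223 and 19219.9 CPM, with a mean of 17722 ± 2119 CPM (SD, n = 2) and rank 16. The hearts did not overlap between these twins, since the lower Mir23a value lies above the higher Mir23b value. miR-23a has been linked to cardiac hypertrophy, and the miR-23 family to vessel growth.

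Mir27a (ENSMUSG00000065444.1) had 4623 and 4828 counts, or 725 and 633 CPM, with a mean of 679 ± 65.5 CPM (SD, n = 2) and rank 85. Mir27b (ENSMUSG00000065475.1) had 17052 and 19172 counts, or 2675 and 2513 CPM, with a mean of 2594 ± 115 CPM (SD, n = 2) and rank 38. Here the chromosome 13 gene was the higher one in both hearts. miR-27 is known from endothelial sprouting and from the control of lipid metabolism.

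Mir24-2 (ENSMUSG00000065541.1) had 3776 and 4171 counts, or 592 and 547 CPM, with a mean of 570 ± 32.4 CPM (SD, n = 2) and rank 91. Mir24-1, read as the opposite-strand count at Mir3074-1 and scaled to the same totals, had 275 and 370 counts, or 43.1 and 48.5 CPM, with a mean of 45.8 ± 3.78 CPM (SD, n = 2). These are the levels of what could be assigned to 1 locus. They are no measure of miR-24-3p, which both hairpins encode. miR-24 has been studied in the survival of heart muscle cells and of endothelial cells. Any fragment of the same-strand gene 2010111I01Rik that fell on Mir3074-1 would also be in the Mir24-1 count.

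Mir3074-1 (ENSMUSG00000092741.1) had 129 and 163 counts on its own strand, or 20.2 and 21.4 CPM, with a mean of 20.8 ± 0.794 CPM (SD, n = 2) and rank 232. The same 85 nt of chromosome 13 thus gave counts from both strands in both hearts. Mir24-1 exceeded Mir3074-1 by 2.13-fold in replicate 1 (exact 95% interval 1.72 to 2.65) and by 2.27-fold in replicate 2 (1.88 to 2.75). At the matching chromosome 8 hairpin, the strand opposite Mir24-2, where Mir3074-2 is annotated, had 0 and 3 counts, at or below the floor. The Mir24-2 strand there had 3776 and 4171 counts. Reads of miR-3074-5p that matched both loci equally are left out at both, so whether Mir3074-1 and Mir3074-2 differ in level was not measured. At Mir23a, Mir27a, Mir23b and Mir27b the opposite strand had 0 counts in both libraries.

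**Figure D2:**
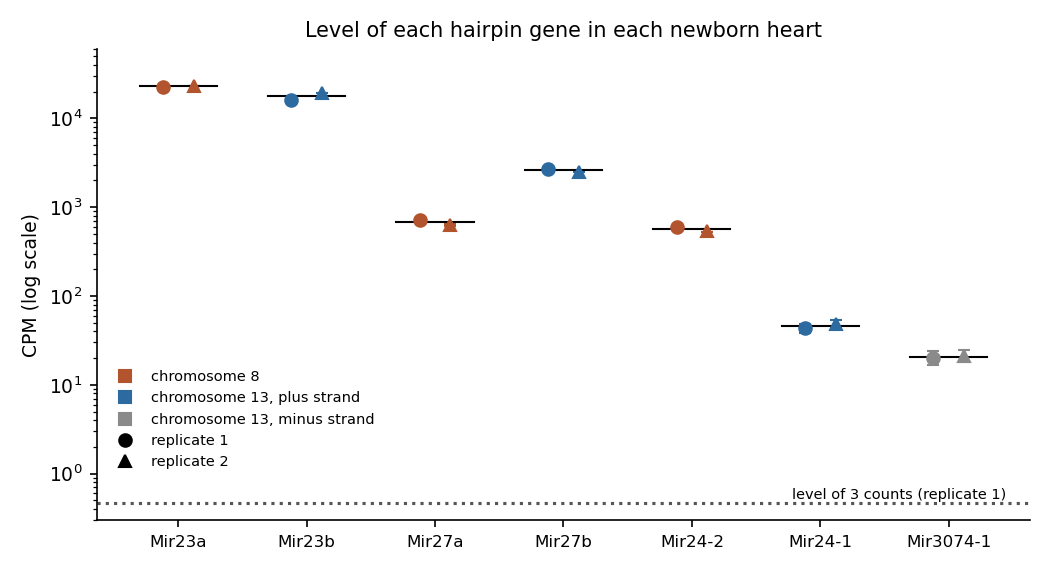
Level of each member in each heart, in CPM on a log axis, with replicate 1 as circles, replicate 2 as triangles, exact 95% intervals as error bars, the mean of 2 hearts as a black line, and the level of 3 counts in replicate 1 as a dotted line. Mir23a and Mir23b lie highest, at means of 22850 and 17722 CPM, while Mir24-1 and Mir3074-1 lie lowest, at 45.8 and 20.8 CPM, and the hearts lie close together for every member shown.

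By mean level the order was Mir23a, Mir23b, Mir27b, Mir27a, Mir24-2, Mir24-1 and Mir3074-1, and it was the same in both hearts. No neighbours in this order overlapped between hearts. The closest were Mir27a and Mir24-2, with Mir27a higher by 1.22-fold in replicate 1 (exact 95% interval 1.17 to 1.28) and by 1.16-fold in replicate 2 (1.11 to 1.21), a mean log2 ratio of 0.25 ± 0.06 (SD, n = 2). A read was taken to stand for 1 mature strand, so counts were not divided by length. Differences in how well each sequence was captured are in all ratios between genes.

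The twin clusters differed in opposite directions from one microRNA to the next. On chromosome 8 over chromosome 13, the ratio was a little over 1 for Mir23, under 1 for Mir27 and far over 1 for Mir24. The Mir24 ratio leaves out reads of miR-24-3p that matched both loci equally, so it is no measure of that product. The Mir23 and Mir27 ratios can include their 3p reads, so these ratios are not of like reads. Mir23a exceeded Mir23b by 1.40-fold in replicate 1 (exact 95% interval 1.39 to 1.41) and by 1.198-fold in replicate 2 (1.19 to 1.21), a mean log2 ratio of 0.37 ± 0.16 (SD, n = 2). Mir27a stood at 0.271 of the Mir27b count in replicate 1 (0.262 to 0.2801) and at 0.252 in replicate 2 (0.244 to 0.2599), a mean log2 ratio of -1.94 ± 0.08 (SD, n = 2). Mir24-2 exceeded Mir24-1 by 13.7-fold in replicate 1 (12.1 to 15.6) and by 11.3-fold in replicate 2 (10.1 to 12.6), a mean log2 ratio of 3.63 ± 0.20 (SD, n = 2). All of these mean ratios lay further from 0 than the SD between hearts, which is a weak criterion for 2 values of the same sign. With 2 hearts, an exact sign-flip test over hearts cannot go below p = 0.5, so no test over hearts was made. Divided by hairpin length, the mean log2 ratios were 0.35 for Mir23, -2.19 for Mir27 and 2.98 for Mir24, so the directions were the same. For Mir24-1 the length used was that of its 68 nt hairpin, although its counts came from the 85 nt of Mir3074-1.

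The ratios of neighbouring hairpins thus did not match between loci. The log2 twin ratio of Mir27 minus that of Mir23 was -2.37 in replicate 1 and -2.25 in replicate 2, a mean difference of -2.31 ± 0.08 (SD, n = 2). Mir23a exceeded Mir27a by 31.3-fold and 36.4-fold on chromosome 8, whereas Mir23b exceeded Mir27b by 6.06-fold and 7.65-fold on chromosome 13. Mir27b exceeded Mir24-1 by 62.0-fold and 51.8-fold. Of the counts of the 3 chromosome 8 hairpins, Mir23a made up 94.5% and 95.1%, Mir27a 3.02% and 2.61%, and Mir24-2 2.47% and 2.26%. Of the 3 plus-strand hairpins on chromosome 13, Mir23b made up 85.6% and 88.2%, Mir27b 14.1% and 11.5%, and Mir24-1 0.228% and 0.223%. The Mir24 shares lack reads of the repeated miR-24-3p at both loci, so the true make-up of the transcripts was not measured.

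Summed over their 3 plus-strand hairpins, the clusters were close in counts that could be assigned to 1 locus. The chromosome 8 cluster held 2.40% and 2.42% of counts, with a mean of 2.41% ± 0.0158, and the chromosome 13 cluster held 1.89% and 2.18%, with a mean of 2.04% ± 0.201 (SD, n = 2 each). The chromosome 8 sum exceeded the chromosome 13 sum by 1.27-fold in replicate 1 (exact 95% interval 1.257 to 1.276) and by 1.11-fold in replicate 2 (1.104 to 1.119), a mean log2 ratio of 0.25 ± 0.13 (SD, n = 2). Both clusters together held 4.45% ± 0.217 (SD, n = 2). All these shares are of the library total on the strand of the genes, which does not itself include the opposite-strand counts used for Mir24-1. Most of these assigned counts were from Mir23a and Mir23b, which gave the larger part of either sum. Reads of miR-24-3p that matched both loci are in neither sum, so the full output of the clusters was not measured.

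**Figure D3:**
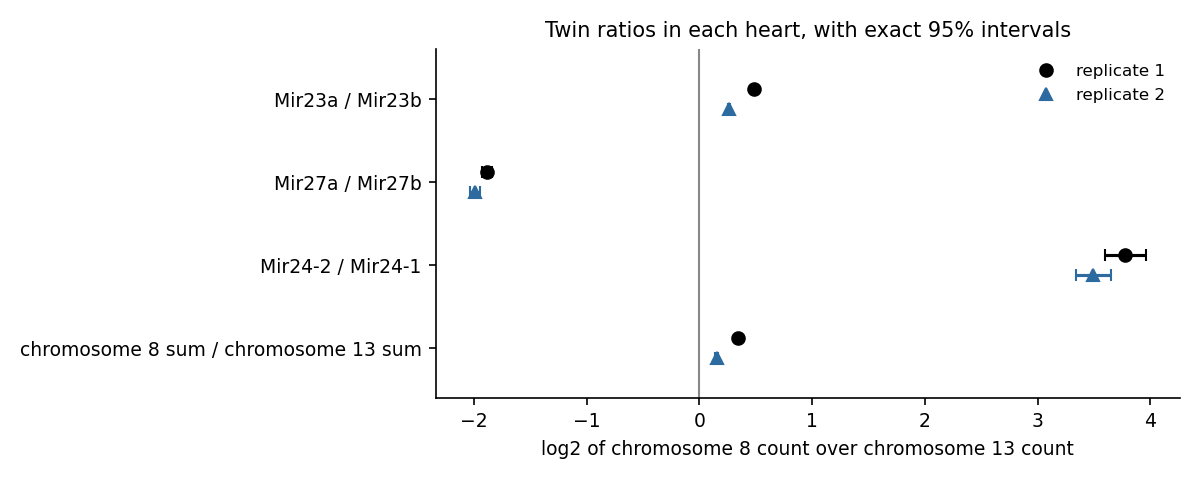
Log2 of the chromosome 8 count over the chromosome 13 count for each pair of twins and for the sums of 3 hairpins, with replicate 1 as circles, replicate 2 as triangles and exact 95% intervals as bars. Mir27 lies left of 0, with a mean of -1.94, Mir23 and the sums lie just right of 0, and Mir24 lies far to the right with a mean of 3.63. Reads of miR-24-3p that matched both loci equally are in neither the Mir24 counts nor the sums.

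Genes with levels most like those of the members were taken as the gene next above and the gene next below in mean CPM over 2 libraries. Mir23a stood between Mir26b at 29909 ± 735 CPM, whose values did not overlap with its own, and Mir22 at 22348 ± 611 CPM, whose values did (SD, n = 2). Mir23b stood between Mir30a at 18643 ± 2868 CPM and Mir30d at 17526 ± 1995 CPM, and both overlapped with it (SD, n = 2). Mir27b stood between Mir145a at 2617 ± 14.6 CPM and Mir106b at 2535 ± 142 CPM, and Mir27a between Mir15b at 720.5 ± 1.78 CPM and Mir30b at 660.4 ± 97.7 CPM, again with overlap on both sides (SD, n = 2). These overlaps are between the ranges of 2 hearts. Within each heart Mir30a was above Mir23b and Mir30d below it, and Mir106b was below Mir27b, while Mir22, Mir145a, Mir15b and Mir30b were above the member in 1 heart and below it in the other.

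Between the hearts, the members of the clusters moved in different directions. Mir23b was 1.18-fold higher in replicate 2, while Mir27a was 1.15-fold, Mir24-2 1.08-fold and Mir27b 1.06-fold higher in replicate 1. Each gene was tested with a 2-sided exact binomial test given the library totals, over 436 features with 10 or more counts and Benjamini-Hochberg adjustment. Of these, 135 passed an adjusted p of 0.05, or 31.0% of features. Among the 7 members 5 passed, 2 with the higher level in replicate 2 (19.0% of all features) and 3 with the higher level in replicate 1 (11.9%). The split was 1 and 3 members with TMM factors and with DESeq2 size factors, and 1 and 4 with totals that leave out Mir126a, since Mir23a changed sides or fell short. Of all features, 131 of 436 passed with TMM factors, 136 of 436 with DESeq2 size factors and 133 of 435 with totals that leave out Mir126a. Genes with many counts pass more often: with a minimum of 100 counts, 48.9% of 276 features passed. The test compares 2 libraries and allows for sampling noise only, and with 1 library per heart the animals cannot be told apart from the library preparations.

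The log2 ratio of replicate 2 over replicate 1 was 0.24 for Mir23b, with an exact binomial adjusted p under 1e-300. It was -0.20 for Mir27a (adjusted p = 2.4e-10), -0.12 for Mir24-2 (adjusted p = 0.00149) and -0.09 for Mir27b (adjusted p = 1.58e-08) in the same exact binomial test. Mir23a had 0.02 (exact binomial adjusted p = 4.01e-05), but with TMM factors it did not pass, with DESeq2 size factors it turned to -0.01 and did not pass, and with totals that leave out Mir126a it was -0.01 and passed in the other direction. Mir24-1, at 0.17 (adjusted p = 0.314), and Mir3074-1, at 0.08 (adjusted p = 0.848), did not pass the exact binomial test. They have the fewest counts of the members, and missing the threshold does not show that their levels were alike. With the edgeR exact test and a preset biological coefficient of variation of 0.1, 0 of 7 members passed and 1 of 436 features did, or 0.229% (29 at an unadjusted p under 0.05). The median absolute log2 ratio was 0.12 for the members and 0.21 over all features tested. It was 0.15 over the 276 features with 100 or more counts, a minimum that every member met.

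**Figure D4:**
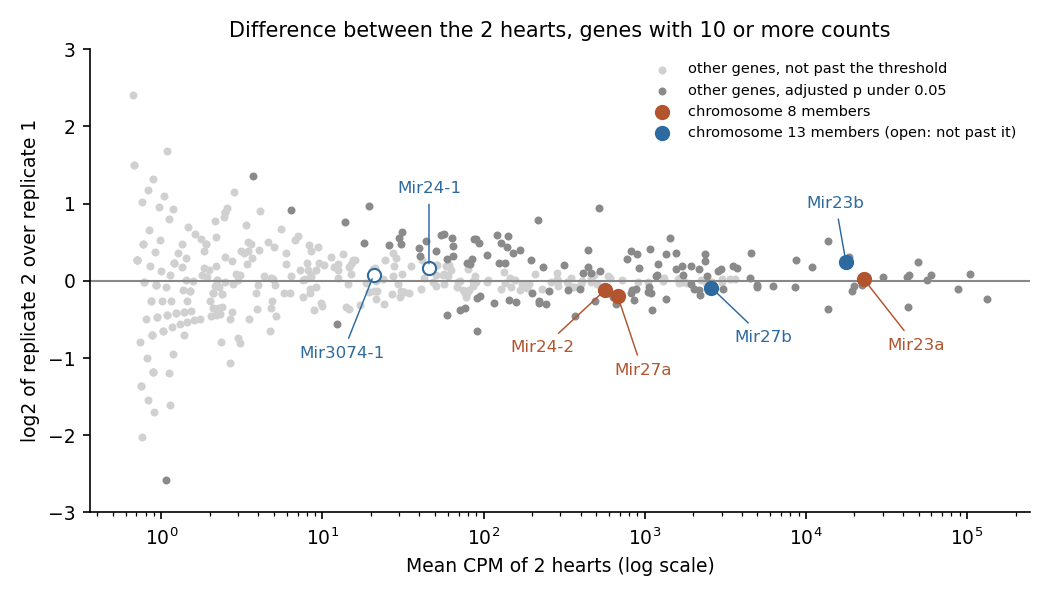
Log2 of replicate 2 over replicate 1 against mean CPM on a log axis for the 436 features tested, with members of chromosome 8 and chromosome 13 in colour, open where they did not pass, and other genes in grey, darker where the adjusted p was under 0.05. Mir23b lies above 0 at 0.24, Mir27a, Mir24-2 and Mir27b lie below 0, and Mir23a lies at 0.02.

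Ratios between genes do not depend on library totals, and most of the 9 ratios tested differed between hearts beyond counting error. In 2-sided Fisher's exact tests of these ratios, with Benjamini-Hochberg adjustment over the 9, 7 passed. The 9 ratios reuse the counts of the same members, so the 7 are not separate results. Ratios of other gene pairs were not tested, so no share over all genes can be set beside them. Among single features with 100 or more counts, 48.9% passed the exact binomial test between hearts. Both tests allow for sampling noise only. The log2 ratio of Mir23a over Mir23b was lower in replicate 2 by 0.22 (Fisher's exact adjusted p = 1.1e-177). Mir23b over Mir27b was higher in replicate 2 by 0.34 (Fisher's exact adjusted p = 3.08e-93), and Mir23a over Mir27a was higher by 0.22 (Fisher's exact adjusted p = 6.98e-13). The other ratios that passed, with higher p-values, were Mir27a over Mir27b, at -0.11 (Fisher's exact adjusted p = 0.00254), Mir24-2 over Mir24-1, at -0.28 (adjusted p = 0.0261), and Mir27b over Mir24-1, at -0.26 (adjusted p = 0.0332). The ratio of the cluster sums also passed, at -0.19 (Fisher's exact adjusted p = 3.01e-142). Mir27a over Mir24-2, at -0.08 (Fisher's exact adjusted p = 0.0761), and Mir24-1 over Mir3074-1, at 0.09 (adjusted p = 0.67), did not pass. In both clusters the Mir23 member was thus higher relative to its Mir27 neighbour in replicate 2. No ratio changed its direction between hearts.

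Other microRNAs linked to vessel growth and to heart muscle growth are given as background to the members. Of 17 genes counted in the vascular list, 5 passed with the higher level in replicate 2, 8 with the higher level in replicate 1 and 4 did not pass, where 31.0% of all features passed and 48.9% of those with 100 or more counts did. Its median log2 ratio was -0.01, against 0.03 over all features tested. Its most abundant genes were Mir126a, a microRNA of endothelium, at 133150.5 ± 15506 CPM, and Mir143, one of smooth muscle, at 88252 ± 4490 CPM (SD, n = 2). Of the endothelial pair, Mir126a was 1.18-fold higher in replicate 1 and Mir139 was 1.09-fold higher in replicate 2, so the pair moved in both directions. Of 14 genes in the cardiac growth list, 2 passed with the higher level in replicate 2, 6 with the higher level in replicate 1 and 6 did not pass, beside the same 31.0% and 48.9%, with a median log2 ratio of -0.07. With the preset spread, 1 of 436 features passed in all. Reads that matched several places are left out, so genes with further copies can rank too low in either list. By counts assigned to 1 gene, the most abundant of the cardiac growth list were Mir208b, within the myosin heavy chain gene Myh7, at 104936 ± 4545 CPM, and Mir22 as given above (SD, n = 2). The genes of this list with the largest ratios among those that passed were Mir29a at 1.37-fold, Mir195a at 1.296-fold and Mir208a at 1.29-fold, all higher in replicate 1, and Mir199a-2 at 1.34-fold, higher in replicate 2. Whether the cell make-up of the hearts had a part in any of these ratios was not tested.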

How the data were processed

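The deposited tables hold raw read counts per gene in whole numbers, made by the authors from 1 alignment file per library on mm10 with GENCODE annotation M4, per the files that accompany them; aligner, counter and trimming: not given in the sources used here. Of 3 columns without a header, the first equals the sum of the others in all 1973 gene rows, the second was read as the gene's strand (92.9% and 92.8% of gene counts) and the third as the opposite strand. Reads that matched several places (35.9% and 34.6%), unmapped reads (12.6% and 15.5%) and reads in no gene (1.93% and 2.28%) stayed out of totals and tests.

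Symbols and positions came from GENCODE M21 (1894 identifiers matched). CPM, ratios (0.5 added counts in log2 values), Clopper-Pearson 95% intervals, exact binomial tests between hearts and Fisher's exact tests of ratios were computed with Python 3.11.15, NumPy 2.4.6, SciPy 1.17.1 and pandas 2.3.3, scaling factors with edgeR 4.0.16 and DESeq2 1.42.0 in R 4.3.3, and plots with matplotlib 3.10.9. edgeR's quasi-likelihood test has no contrast in 1 group. p-values under 1e-300 are given as that bound. Named genes were the members, the genes next to them in level, and of 2 lists the 2 most abundant genes and those past the threshold by over 1.25-fold. Members, lists and tests were chosen with earlier results of these data known.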

Additional observations from a re-analysis of the deposited data

How the results depend on the processing

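The ratios between twins, of the cluster sums, and of Mir23 over Mir27 within each cluster kept their direction under all alternatives run. These were counts of both strands, 5 added counts, division by hairpin length, each heart alone, and, for the sums, leaving out Mir24. Counts of both strands could not change the Mir23 and Mir27 ratios, since the opposite strand had 0 counts there. Adding 5 counts could not turn ratios of counts this large. Division by hairpin length moved 4 mean log2 ratios by more than the SD between hearts, to -2.19 for Mir27a over Mir27b, 2.98 for Mir24-2 over Mir24-1, 5.29 for Mir23a over Mir27a and -2.54 for the Mir27 minus Mir23 difference. For Mir24-1 this length was that of the 68 nt hairpin and not the 85 nt of Mir3074-1, where it was counted. Without replicate 1 or replicate 2 the values were 0.26 and 0.48 for Mir23, -1.99 and -1.88 for Mir27, 3.49 and 3.78 for Mir24, 0.15 and 0.34 for the sums, 5.19 and 4.97 for Mir23a over Mir27a, 2.94 and 2.60 for Mir23b over Mir27b, and -2.25 and -2.37 for the difference. Between hearts, 135 features and 5 members passed, and with a preset spread of 0.1 in edgeR's exact test, which allows for more than sampling noise by construction, 1 and 0 did. Mir23a turned from 0.02 to -0.0060 with DESeq2 size factors and -0.0136 without the most abundant gene; the cause was not tested. With all reads of the library as the total, the mean of Mir23a was 10303 CPM and of Mir24-1 20.6 CPM. Depth limits the ratios of Mir24-1 and Mir3074-1, which rest on 129 to 370 counts per library. No paired analysis was possible because there is 1 group, so no groups share replicate numbers; the ratios between genes were taken within each heart.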
